A study of Mus musculus with 2 samples.

Results

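Gdf10/C7 fibro-adipogenic progenitors (FAPs) are connective tissue cells of muscle that express the TGF-beta superfamily ligand Gdf10 and the complement protein C7. They were chosen by their own counts of unique molecular identifiers (UMIs, each standing for 1 captured RNA molecule) in single-cell RNA-seq of mouse limb muscle. A cell was gated as a FAP with at least 1 UMI of Pdgfra, at least 5 of Dcn and under 2 each of Ptprc and Cdh5. It was a Gdf10/C7 cell when at least 2 of Gdf10, C7, Inmt, Penk and Igfbp3 were detected and this number was above that of each of 3 other 5-gene lists, led by Pi16/Dpp4, Cxcl14/Smoc2 and Ifi205/Ptx3. The rule found 214 cells among 2252 gated FAPs and 10891 kept cells, 124 of them in the DMSO library and 90 in the MVC library.

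The study asked whether the small-molecule drug Maraviroc (MVC) lowers senescence and inflammatory signalling in aging muscle. Aged C57BL/6 mice had received intraperitoneal MVC or its vehicle DMSO every other day per the study's methods, and live mononuclear cells were sorted. The study presents these cells with its high dose, short term regime. Each treatment had 1 library and no replicate, and the number of animals in a library was not stated in the sources used here. MVC and DMSO are therefore set side by side with intervals that cover counting error only, and a difference between the libraries cannot be told apart from a difference between animals, digestions or runs.

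FAPs are Pdgfra-expressing mesenchymal cells of the muscle interstitium that secrete matrix and growth factors, and can form adipocytes or fibroblasts after injury. Gdf10, also called BMP3b, is a secreted ligand of the TGF-beta superfamily, and such ligands act through type I and type II receptors and Smads, held in check by secreted antagonists such as follistatin. C7 belongs to the terminal part of the complement cascade. Inmt methylates indoleamines, Penk is the precursor of the enkephalin neuropeptides, and Igfbp3 binds insulin-like growth factors outside the cell.

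The 250 bases before the RefSeq start sites of the pair of genes that name the class are shown because this pair gives the class its name. They are from RefSeq on GRCm38.p6, and capitals mark matches on either strand to the GC box GGGCGG or the TATA box TATAAA. Gdf10 was on the plus strand at chr14:33923337-33923586 and C7 on the minus strand at chr15:5063774-5064023.
Gdf10: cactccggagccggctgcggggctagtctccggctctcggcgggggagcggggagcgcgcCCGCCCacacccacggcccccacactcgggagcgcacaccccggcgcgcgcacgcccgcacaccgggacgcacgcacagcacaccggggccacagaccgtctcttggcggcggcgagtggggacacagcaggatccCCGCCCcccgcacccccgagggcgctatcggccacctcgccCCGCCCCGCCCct
C7: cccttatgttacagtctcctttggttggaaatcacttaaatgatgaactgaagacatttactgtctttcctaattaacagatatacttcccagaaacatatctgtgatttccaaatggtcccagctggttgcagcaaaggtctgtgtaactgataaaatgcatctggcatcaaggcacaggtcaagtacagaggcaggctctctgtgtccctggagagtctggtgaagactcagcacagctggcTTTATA

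The Gdf10 window had 78.8% G and C and 4 matches to GGGCGG, the last 2 of which shared a base, and no TATAAA. The C7 window had 43.2% G and C, 1 match to TATAAA and none to GGGCGG. Among 32536 such windows of mouse genes, 33.0% held GGGCGG and 12.3% held TATAAA, and the median window had 52.4% G and C. No measurement in these files bears on these windows themselves.

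The labelled cell type was held against its markers. All 15 FAP and fibroblast markers examined, among them Pdgfra, Cd34, Ly6a, Lum and Dpt, had UMIs in the Gdf10/C7 cells of both libraries, and every one of these cells held at least 3 of them. Their summed level, as counts per 1000000 UMIs (CPM), was 42239 in DMSO and 36115 in MVC. Lymphocyte markers summed to 1.92 vs. 4.04 CPM (DMSO vs. MVC), macrophage markers to 36.5 vs. 29.6, endothelial markers to 209 vs. 238, and muscle fibre transcripts to 23.1 vs. 26.9. Satellite cell markers summed to 294 vs. 311 CPM, of which Sdc4 gave 291 of 306 UMIs in DMSO and 200 of 231 in MVC. Pax7, Myf5, Myod1, Calcr and Cdh15 of the satellite cell list, Tyrobp of the macrophage list, and Cd3e and Cd3d of the lymphocyte list were at 0 in both. Tenocyte markers stood highest of the other types, at 1045 vs. 1358 CPM, and 12 DMSO and 9 MVC cells held at least 3 of them, led by Thbs4 and Fmod. Lymphatic endothelial markers differed between the libraries, at 168 vs. 17.5 CPM, and Ccl21a gave 168 of the 175 UMIs in DMSO, while Prox1 and Lyve1 were at 0 in MVC. Their part in the differences given below was not tested. No Gdf10/C7 cell shared its barcode with a cell of the other library.

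Gdf10/C7 cells were shallower than the other FAP classes. They had a median of 8068 UMIs (1734 to 20598) in DMSO and 7792 (1245 to 30741) in MVC, against class medians of 9712 to 14038 for the other classes and the FAPs in no class. The class held 1039713 UMIs in DMSO and 742758 in MVC, so that 3 UMIs, the limit that a count of 0 allows, were worth 2.89 and 4.04 CPM.

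The values that chose the cells are given as a description. Gdf10 stood at 118 CPM (95% Poisson interval 98.3 to 141, 123 UMIs) in DMSO and 291 CPM (253 to 332, 216 UMIs) in MVC, and C7 at 1121 (1058 to 1188) and 1196 CPM (1118 to 1277). Inmt was at 958 and 673 CPM, Penk at 511 and 404, and Igfbp3 at 715 and 541. In the other gated FAPs, Gdf10 was at 7.57 CPM in DMSO and 20.6 in MVC, and C7 at 181 and 126. The level in the class was 15.6 and 14.1 times that in the other gated FAPs for Gdf10 and 6.19 and 9.52 times for C7, but only 2.08 and 3.33 times for Inmt and 3.04 and 4.01 times for Penk.

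**Figure D1:**
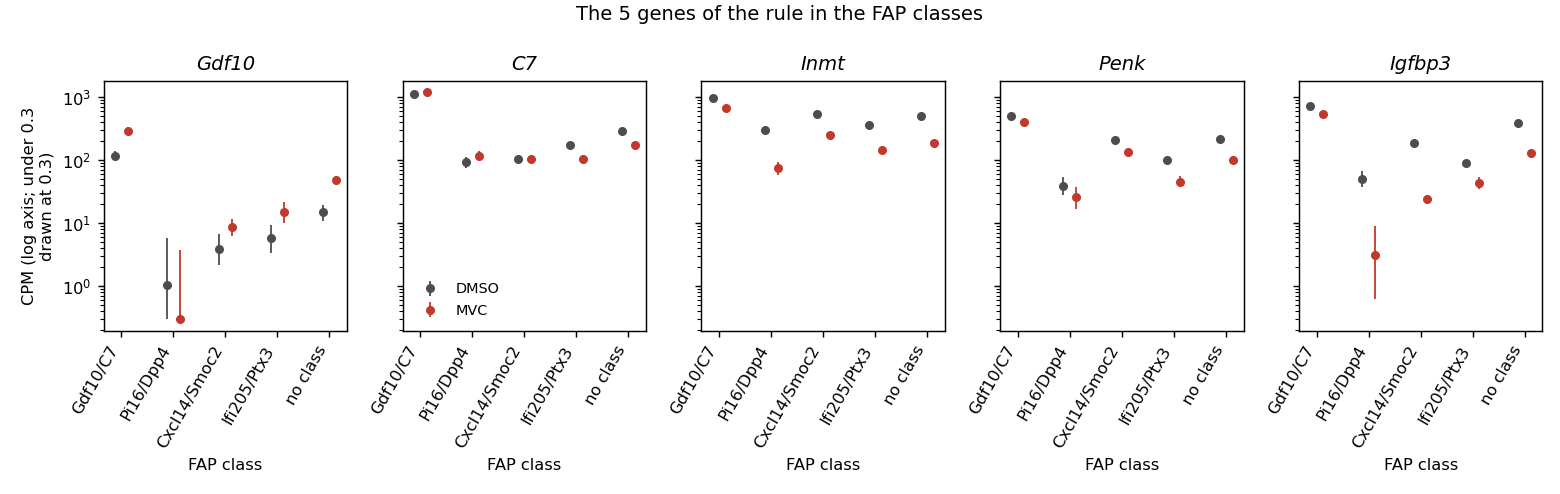
Levels of the 5 genes of the rule in each FAP class, as CPM on a log axis, for the DMSO (grey) and MVC (red) libraries, with exact 95% Poisson intervals that cover counting error only. Gdf10 and C7 stand apart in the Gdf10/C7 class in both libraries, at 118 and 291 CPM for Gdf10, while Inmt and Penk also have UMIs in the other classes.

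At this depth C7 was detected in more of the cells than Gdf10. A C7 UMI was found in 113 of 124 cells in DMSO and in 81 of 90 in MVC (68.3% and 72.9% after thinning, as described next), whereas a Gdf10 UMI was found in 44.4% (55 of 124, Clopper-Pearson 95% interval 35.4 to 53.6%) and 71.1% (64 of 90, 60.6 to 80.2%). After each cell was thinned to 2000 UMIs, which left out 4 DMSO and 5 MVC cells, the Gdf10 shares were 27.5% and 37.6%. In endothelial cells (Cdh5 UMIs, no Pdgfra), which should lack these genes and had a median of 4241 UMIs in DMSO and 4059 in MVC, Gdf10 and C7 were found in at most 0.506% of cells. Igfbp3 was not specific in this sense, with a UMI in 26.4% of DMSO and 24.5% of MVC endothelial cells. Neither Gdf10 nor C7 was detected in 6 cells of each library.

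The combinations of the 5 genes in a cell follow from the rule in part and are a description. A combination of C7, Inmt, Penk and Igfbp3 without Gdf10 was the most frequent in DMSO (36 of 124 cells), followed by C7, Inmt, Penk and Gdf10 without Igfbp3 (26 cells), and all 5 genes were found together in 16 cells. In MVC, all 5 together were most frequent (31 of 90 cells). Igfbp3 was at 486 CPM in the DMSO cells with a Gdf10 UMI and at 899 CPM in those without, and at 345 and 1096 CPM in MVC. C7, Inmt and Penk were at least as high in the cells with Gdf10 in both libraries, at 1179 vs. 1075 CPM for C7 in DMSO and 1347 vs. 767 CPM in MVC. Igfbp3 was also unevenly spread, since 3 cells held 33.9% of its UMIs in DMSO and 42.0% in MVC.

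**Figure D2:**
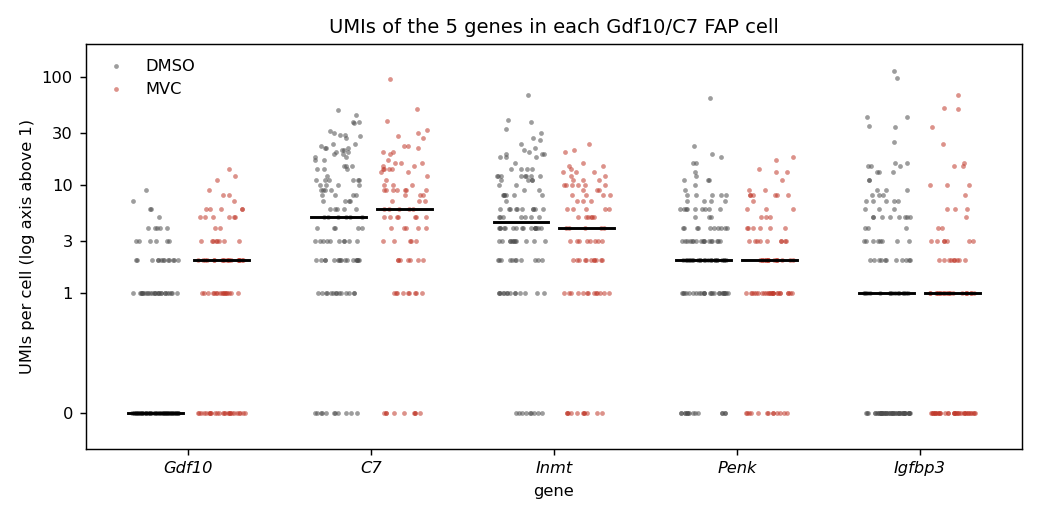
UMIs of Gdf10, C7, Inmt, Penk and Igfbp3 in each Gdf10/C7 cell of the DMSO (grey, 124 cells) and MVC (red, 90 cells) libraries, on an axis that is logarithmic above 1. Black bars are medians, which stand at 0 UMIs for Gdf10 in DMSO, 2 in MVC and 5 and 6 for C7.

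Cells with and without a Gdf10 UMI were then compared within each library. Of 1199 genes with at least 100 UMIs over both libraries that were not carried by a few cells, none differed past 2-fold in the same direction in both. Counts in the split were small for some genes. The MVC cells without a Gdf10 UMI numbered 26, and Tmem256, for example, had 4 UMIs in them. Sparcl1, a matricellular protein, was higher in the cells with Gdf10, at 622 vs. 393 CPM and 892 vs. 556 CPM. Fosl2, an AP-1 subunit, was lower in them, at 191 vs. 280 CPM and 170 vs. 329 CPM. These genes were picked after their values were seen.

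The threshold of the rule lay in a continuum. Just inside, 4 DMSO and 11 MVC cells had exactly 2 of the 5 genes, with a median of 3721 and 2923 UMIs, and 73 and 53 cells had 1 gene more than the next list. Just outside, 129 DMSO and 88 MVC cells were tied with another list. The tied cells had C7 at 624 CPM in DMSO and 489 in MVC, against 1045 and 934 CPM in the members ahead by 1 gene, and Gdf10 at 29.8 and 176 CPM, against 86.8 and 192 CPM. A further 466 DMSO and 353 MVC cells had at least 2 of the 5 genes but more of another list.

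Gdf10/C7 cells were set against the other FAPs over all genes. Of 3055 genes with at least 100 UMIs in the class, 57 (1.87%) were higher past 2-fold than in the other gated FAPs in both libraries, and 34 (1.11%) were lower past 2-fold in both. The genes of the rule, Pdgfra and Dcn were left out of these counts. With 1 library per treatment there is no test. The agreement of the libraries on these genes follows from the call, which required both ratios to pass 2-fold. The other gated FAPs include the tied cells described above.

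Among genes not carried by a few cells, Fbln1 and Gas1 were among those that differed most. Fbln1, an elastic fibre associated glycoprotein, was at 286 CPM against 84.8 in the other FAPs in DMSO (3.37-fold, interval 2.95 to 3.84) and at 260 against 73.1 CPM in MVC (3.55-fold). Gas1, a membrane protein of Hedgehog reception and growth arrest, was at 520 against 148 CPM in DMSO and 898 against 254 CPM in MVC, 3.52-fold and 3.54-fold. The ratios of Fbln1 and Gas1 were thus close in the libraries, and both genes were higher in the Gdf10/C7 class than in any of the 3 other classes in both.

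Cygb (cytoglobin, a haem protein of fibroblasts) followed at 2.17-fold and 2.01-fold. Scara3, Setbp1, Prkg1 (a cGMP-dependent kinase), Sparcl1, Kcnt2 (a potassium channel), Pik3r1 (a regulatory subunit of PI3-kinase), Fmo1, Txnip, Prrx1 (a mesenchymal transcription factor), Igfbp7 and Nbl1 (a BMP antagonist) were also among the genes named by rank, with the smaller of their ratios between 1.58 and 1.93. These last 11 passed 1.5-fold but not 2-fold in both libraries.

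On the lower side, Hspg2 was the only gene not carried by a few cells that passed 2-fold in both libraries. Hspg2 (perlecan) was at 107 CPM against 262 in DMSO and 153 against 370 CPM in MVC, 0.408 and 0.415 times the other FAPs. By class the gap was uneven. Hspg2 was at 133 and 196 CPM (DMSO and MVC) in Pi16/Dpp4 cells, not far above the Gdf10/C7 class. It was at 371 and 531 CPM in Cxcl14/Smoc2 cells and at 202 and 227 CPM in Ifi205/Ptx3 cells. Col6a2 was at 0.505 and 0.471 times and Col6a1 at 0.610 and 0.644 times. Irak3, an inhibitor of Toll-like receptor signalling, was at 0.515 and 0.471 times. Kif2a, at 0.439 and 0.502 times, came directly after Hspg2 by rank. Tshz1, Tnxb, Lims1, Rhoq and Hspa4 completed the 10 named, with the larger ratio between 0.584 and 0.662.

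**Figure D3:**
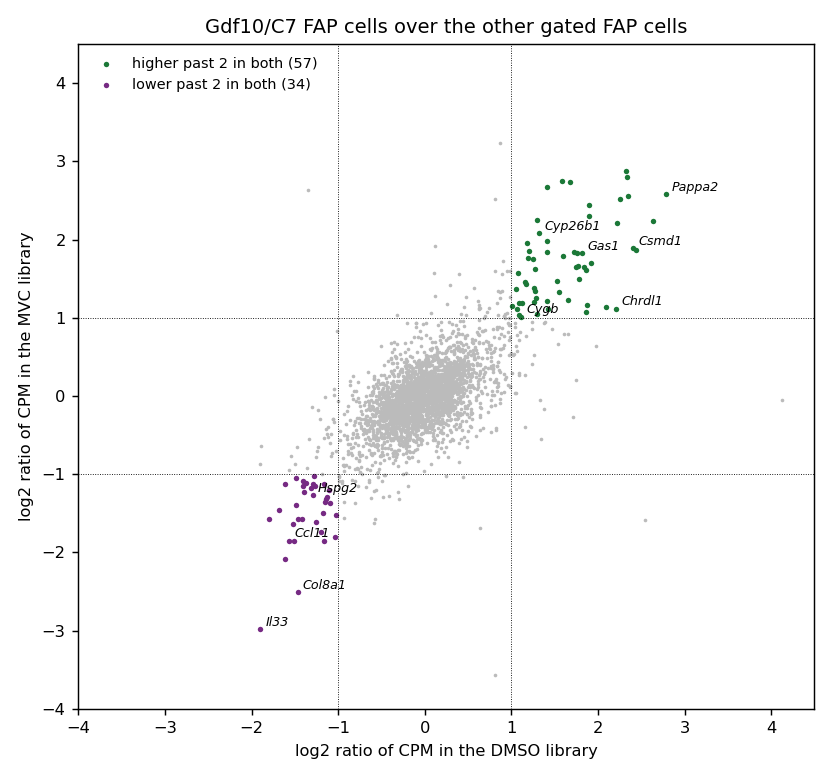
Log2 ratio of CPM in the Gdf10/C7 cells over the other gated FAPs, in the DMSO library (x axis) and the MVC library (y axis), for 3055 genes. Dotted lines mark a 2-fold difference. Past it in both libraries lie 57 genes upward (green) and 34 downward (purple), of which 4 and 1 are not carried by a few cells.

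Complement genes were described as a group. Beside C7 itself, the component C4b and 2 of 4 complement regulators (Clu and Csmd1) were higher past 2-fold in both libraries, where 1.87% of all genes were, and no regulator was lower. C4b was at 240 CPM against 104 in DMSO and 172 against 47.8 CPM in MVC. Clu (clusterin), which binds terminal complement complexes, was at 140 against 25.8 CPM and 136 against 37.2 CPM. Csmd1 was at 823 against 155 CPM and 337 against 90.8 CPM, but 3 cells held 44.5% of its UMIs in DMSO. In MVC, 3 cells held 37.5% of the C4b UMIs and 38.6% of those of Clu. The median log2 ratio of the regulators was 1.10 in DMSO and 0.998 in MVC, against -0.03 and -0.02 over all genes. C3 (1090 CPM in DMSO and 789 in MVC) and the C1 inhibitor Serping1 (1717 and 1511 CPM) did not pass 2-fold.

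Among the partners of Gdf10 in its pathway, some antagonists were higher. Of 10 TGF-beta/BMP inhibitors and binding proteins, 3 were higher past 2-fold in both libraries (1.87% of all genes were) and none lower past it. In both libraries 3 lay below the other FAPs, and the median log2 ratio was 0.10 in DMSO and 0.24 in MVC. Of the higher genes, Fst (follistatin), which binds activins, was at 468 CPM against 177 in DMSO and 578 against 161 CPM in MVC. Chrdl1 (chordin-like 1) was at 105 against 22.6 CPM and 49.8 against 23.03 CPM. Few cells carried Chrdl1, of which 3 cells held 49.5% of the UMIs in DMSO and 73.0% in MVC. For Fst, 3 cells held 42.9% and 34.0%.

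For ligands and receptors the count was 0. None of 5 other ligands and none of 12 receptors and Smads passed 2-fold in both libraries. Over all genes, only 1.87% were higher past 2-fold in both and 1.11% lower, so a count of 0 in lists this short says little. Acvr2a, an activin type II receptor, was at 169 against 91.0 CPM in DMSO and 337 against 114 CPM in MVC, 1.86-fold and 2.94-fold. Of 8 target genes, Id2 passed 2-fold in both (127 against 29.8 CPM and 106 against 48.5 CPM), and Id3 was at 1.39-fold and 1.33-fold. For Id2, 3 cells held 28.0% of the UMIs in DMSO and 57.0% in MVC.

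In the lists around the other rule genes, at most 1 gene passed 2-fold in both libraries, where 1.87% of all genes were higher past it. In the retinoid and methyl donor list (6 genes besides Inmt) it was Cyp26b1, which degrades retinoic acid, at 85.6 against 34.4 CPM in DMSO and 143 against 33.8 CPM in MVC. In the list of IGF ligands, receptors and binding proteins (11 genes) it was the IGFBP protease Pappa2, of which 3 cells held 79.2% and 95.2% of the UMIs. In the adipogenic list (9 genes) it was Apoe, at 812 against 224 CPM and 579 against 276 CPM. None of 4 other neuropeptide, guidance and neurotrophic genes did, and Ntn4 was at 0.670 and 0.336 times the other FAPs.

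Matrix lists went different ways, where 1003 of all 3057 genes were above the other FAPs in both libraries and 1160 below. Of 8 small leucine-rich proteoglycans, 6 were above the other FAPs in both libraries and 1 below, with a median log2 ratio of 0.34 in DMSO and 0.21 in MVC, and none passed 2-fold. Of 10 basement membrane genes, 8 were below the other FAPs in both libraries, with a median log2 ratio of -0.71 in each. Hmcn1 (hemicentin) went the other way, at 74.1 against 22.3 CPM and 139 against 38.8 CPM. Of 12 fibrillar and other collagens, 8 were below in both, and Col8a1 and Col5a3 passed 2-fold, where 1.11% of all genes were lower past it. Of 13 chemokines and cytokines, Ccl19, which attracts lymphocytes through Ccr7, was higher (62.5 against 26.2 CPM and 90.2 against 34.6 CPM, with 55.4% and 38.8% of its UMIs in 3 cells), while the eosinophil attractant Ccl11 (407 against 1209 CPM and 280 against 1011 CPM) and the alarmin Il33 were lower. Low Ccl11 was not particular to the class, since Pi16/Dpp4 cells had it at 419 CPM in DMSO and 442 in MVC. It was at 1306 and 1206 CPM in Cxcl14/Smoc2 cells and at 1519 and 1145 CPM in Ifi205/Ptx3 cells. Interferon-stimulated genes gave 1 measured gene and MHC class I genes 5, and none passed 2-fold in both.

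Genes chosen after their values were seen added enzymes and membrane proteins. Tmem176b was at 193 CPM against 38.2 in DMSO and 222 against 31.8 CPM in MVC, and its neighbour Tmem176a at 121 against 23.8 CPM and 106 against 18.1 CPM. Fmo2, a flavin monooxygenase, was at 259 against 54.1 CPM and 178 against 31.0 CPM. Mgp (matrix Gla protein, an inhibitor of calcification) was at 3643 against 1511 CPM and 3198 against 1041 CPM, and Gas6, the ligand of the Axl receptor, at 302 against 82.8 CPM and 254 against 83.6 CPM.

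Across the 4 FAP classes in 2 libraries, the profiles most like that of Gdf10 were those of Setbp1 (Pearson r = 0.95), C7 (0.95), Serpinf1 (0.93), Rab21 (0.92), Prnp (0.91), Cyba (0.90), Hnrnph1 (0.88), Fbln1 (0.88), Arpp19 (0.88) and Gas1 (0.87). These are descriptions over 8 values, 4 of which come from each library, and C7 chose the class. Several of these profiles were shallow: Rab21 ranged only from 137 CPM to 174 CPM over the 8 values. The levels of Gdf10 itself ran from the Pi16/Dpp4 class (1 UMI in DMSO, 0 in MVC) through Cxcl14/Smoc2 (3.97 and 8.71 CPM) and Ifi205/Ptx3 (5.81 and 15.02 CPM) to the Gdf10/C7 class. The intervals of the Cxcl14/Smoc2 and Ifi205/Ptx3 classes overlapped in both libraries.

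The share of gated FAPs that the rule placed in the class was 11.7% in DMSO (124 of 1064, 9.79 to 13.7%) and 7.58% in MVC (90 of 1188, 6.14 to 9.23%), a difference of -4.08 percentage points (Newcombe 95% interval -6.56 to -1.65). The genes of the rule themselves differed between the libraries outside the class, so this share is not read as a number of cells of a type. In the other gated FAPs, Inmt was at 461 CPM in DMSO and 202 in MVC and Igfbp3 at 209 and 57.0, while Smoc2 and Col15a1 of a competing list were at 827 and 1444 CPM and 153 and 362 CPM. Leaving Inmt out of the list gave 5.36% vs. 3.70% (difference -1.65 points, interval -3.44 to 0.07), so that the interval then held 0, and leaving out Gdf10 gave 9.30% vs. 4.97%.

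The comparison of MVC with DMSO within the class asks what Gdf10/C7 cells expressed after treatment. Cdkn1a (p21), Serpina3n, Txnip and Apod were lower in MVC, and Gas1, Lum, Lgals1 and collagen VI genes were higher. Each of these genes differed in the same direction in the other gated FAPs, so none of these differences was particular to the class. Of 3057 genes tested, 269 (8.8%) were higher past 1.5-fold in MVC and 194 (6.35%) were lower. Of these, 52 of the higher and 36 of the lower genes met the rule for genes not carried by a few cells. The median log2 ratio of all genes was 0.06, and after scaling to a median ratio of 1, 217 genes were higher and 247 lower (46.8% of calls higher in place of 58.1%), so the balance of higher and lower genes depends on the scaling. The interval of the ratio excluded 1 for all but 1 of these genes, which says that counting error was small, not that the treatment caused the difference.

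Senescence came first in the study's question. Cdkn1a, a cyclin-dependent kinase inhibitor, was at 302 CPM in DMSO (270 to 337, 314 UMIs) and 144 CPM in MVC (118 to 174, 107 UMIs), a ratio of 0.48 (0.38 to 0.60). The ratio was below 1 in each FAP class, at 0.42 in Cxcl14/Smoc2, 0.61 in Pi16/Dpp4 and 0.75 in Ifi205/Ptx3 cells. Cdkn2a, another such inhibitor, had 1 UMI in DMSO and 0 in MVC, and was not measurable at this depth.

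The chemokines Ccl3, Ccl4 and Ccl5 were at the limit of detection in these cells. Ccl3 had 0 UMIs in DMSO and 1 in MVC, Ccl4 0 and 2, and Ccl5 1 and 2, each below the 3 counts that a 0 allows. No direction can be read from them.

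Txnip was among the lowest ratios of well-spread genes. This inhibitor of thioredoxin, which responds to glucose, was at 1345 CPM in DMSO and 586 in MVC, a ratio of 0.44 (0.39 to 0.49). Txnip was also lower in the other gated FAPs, at 631 and 358 CPM, so this difference was found beyond the Gdf10/C7 class.

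Also among the 12 lowest were Itgbl1 (0.52), an integrin beta-like secreted protein, the lipocalin Apod (0.55, 3199 CPM in DMSO and 1753 in MVC), Nckap5, Ahnak2, Klf3, Xdh (xanthine dehydrogenase, 0.59), the non-coding RNA Gas5 (0.60), Ifngr1 (a chain of the interferon gamma receptor, 0.60), Fam102b and Ypel3 (0.61). Itgbl1 was at 305 CPM in DMSO and 261 in MVC in the other FAPs, against 581 and 303 CPM in the Gdf10/C7 class, and at 66.1 and 200 CPM in Pi16/Dpp4 cells, where it was higher in MVC. After thinning, its ratio in the Gdf10/C7 class was near 1 (log2 0.00233). Whether the Itgbl1 ratio differs between these groups was not tested. Apod was also lower in MVC in the other gated FAPs, at 3116 CPM in DMSO and 1260 in MVC.

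**Figure D4:**
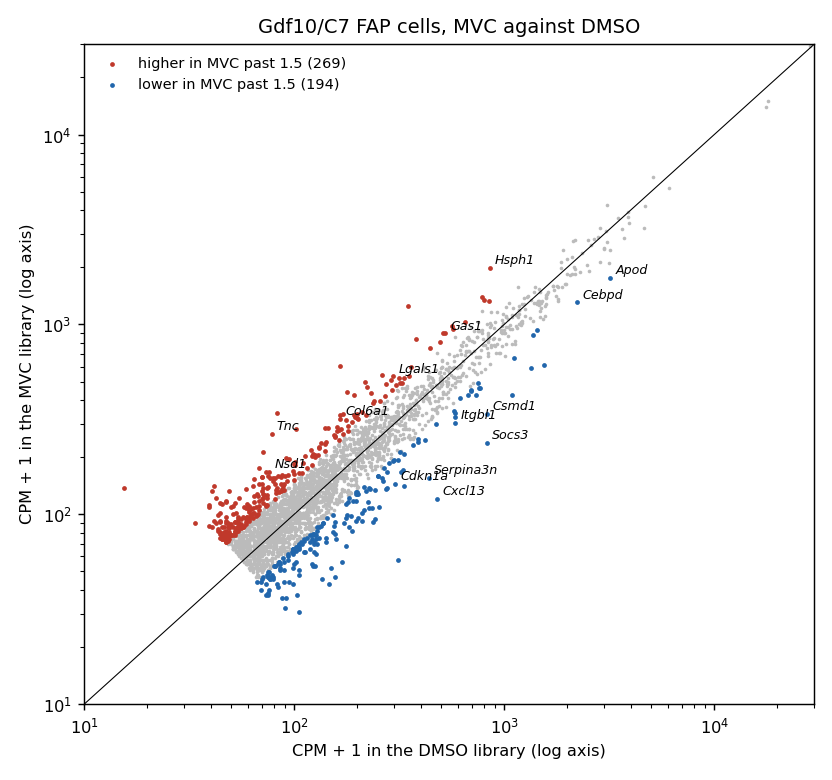
Level of each of 3057 genes in the Gdf10/C7 cells of the DMSO library (x axis) and the MVC library (y axis), as CPM + 1 on log axes. Genes past 1.5-fold are red (269 higher in MVC) or blue (194 lower in MVC); Serpina3n and Cdkn1a lie below the diagonal and Gas1, Lgals1 and Col6a1 above it.

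The 12 highest ratios lay between 1.73 and 2.23. Nsd1, a histone H3 methyltransferase, was at 75.0 CPM in DMSO and 167 in MVC (2.23, 1.66 to 2.99), followed by Zfp592 (2.15) and the endoplasmic reticulum protein Bcap31 (1.95). Col6a1, a collagen VI chain, was at 164 and 316 CPM (1.92, 1.57 to 2.36). Ankib1 (1.92), the ketone body enzyme Oxct1 (1.82), the galectin Lgals1 (1.81, 294 and 533 CPM), Ly6e (1.79), the chaperone calreticulin Calr (1.78), the proteoglycan lumican Lum (1.77, 287 and 508 CPM), Pebp1 (1.76) and Cfdp1 (1.73) made up the others. Col6a1, Lgals1 and Lum were also higher in MVC in each of the 3 other classes.

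Acute phase and glucocorticoid-responsive genes were on the lower side. Of 11 measured, 5 were lower past 1.5-fold and none higher, where 6.35% of all genes were lower, and the median log2 ratio was -0.42 against 0.06 over all genes. Serpina3n, a serpin of the acute phase, was at 437 CPM in DMSO (397 to 479) and 155 in MVC (128 to 186), a ratio of 0.35. Its level was the highest of the 4 FAP classes in both libraries, with 152 to 204 CPM in the others in DMSO and 21.7 to 48.1 CPM in MVC. In the other gated FAPs together Serpina3n was also lower in MVC, at 193 and 39.9 CPM. Cebpd was at 2225 and 1307 CPM (0.59), Klf9 at 617 and 408 CPM (0.66) and the kinase Sgk1 at 200 and 94.2 CPM (0.47). The fifth was Tsc22d3, which glucocorticoids induce (0.43), named outside the rule after its values were seen.

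Adipogenic and lipid genes showed a like count, with 4 of 9 lower past 1.5-fold (6.35% of all genes were), none higher and a median log2 ratio of -0.48. These were Apod, Cebpd, which the preceding list also holds, lipoprotein lipase Lpl (694 and 446 CPM, 0.64) and Klf4 (582 and 339 CPM, 0.58), which the immediate early list also holds. Immediate early and heat shock genes, which respond to tissue dissociation, had 36 members measured, with 5 lower, 1 higher and a median of -0.15. Over all genes, 6.35% were lower and 8.8% higher. Socs3, an inhibitor of cytokine signalling, was at 822 and 237 CPM (0.29), and the chaperone Hsph1 went the other way at 851 and 1979 CPM (2.33), but was at 1.10 after thinning. The part that dissociation had in these values was not tested.

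Of 6 complement components measured, not all are reported here. C3 (0.72), C4b (0.72), C1s1 (0.76) and C1ra (0.91) lay below 1 and Cfb above it (1.35). None of those named passed 1.5-fold, which does not hold for the whole list. Among 4 regulators Csmd1 was at 0.41, but this value rested on few cells, as said above. Clu was at 140 and 136 CPM.

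In the pathway of Gdf10, the list of inhibitors and binding proteins leaned to the higher side, with exceptions. Of 10 inhibitors and binding proteins, 4 were higher past 1.5-fold, against 8.8% of all genes, and 1 lower, with a median log2 ratio of 0.30. Bmper, which binds BMPs, was at 273 CPM in DMSO and 483 in MVC (1.77), Ltbp1, which tethers latent TGF-beta, at 193 and 323 CPM (1.67), though not after thinning. Rgma (1.94), a BMP co-receptor, was also higher and was named after its values were seen. Chrdl1 was lower (0.48).

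Ligands and receptors were mixed. Bmp5 was at 138 CPM in DMSO and 214 in MVC (1.55) and Bmp4 at 88.5 and 43.1 CPM (0.49). Acvr2a was at 169 and 337 CPM (1.99, 1.63 to 2.43), and the inhibitory Smad7 at 157 and 72.7 CPM (0.46, 0.33 to 0.63). Of 8 target genes, Id3 was lower (1364 and 874 CPM, 0.64), Tgfbi was higher (201 and 316 CPM, 1.57), and 6 passed neither way. Over all genes, 8.8% were higher and 6.35% lower. Id3 passed 1.5-fold in 4 of 7 alternatives (0.47 to 0.86) and Tgfbi in 3 of 7. Gdf10 itself, which chose the cells, was 2.46 times as high in MVC and is given with no reading.

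IGF genes had a median log2 ratio of 0.42 over 11 genes, of which 4 were higher past 1.5-fold, against 8.8% of all genes, and none lower. Igfbp5 was at 216 CPM in DMSO and 494 in MVC (2.28, 1.93 to 2.71), the IGFBP protease Pappa at 51.9 and 101 CPM (1.94), and the insulin receptor Insr at 47.1 and 84.8 CPM (1.80). The fourth was Pappa2 (2.22), which few cells carried, as given above, and which turned after thinning (log2 -1.02). Igf1 was at 304 and 409 CPM and did not pass. Igfbp5 was also higher in MVC in each of the other classes. In the cells with a Gdf10 UMI alone, the median of the list was -0.0047.

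Collagens and small proteoglycans leaned to the higher side in MVC. Of 12 collagens, 4 were higher past 1.5-fold, against 8.8% of all genes (Col6a1, Col6a2, Col6a3 and Col14a1, at 1.92, 1.71, 1.55 and 1.56) and Col8a1 was lower, and the median log2 ratio was 0.41. Col14a1 passed 1.5-fold in 2 of 7 alternatives (1.19 to 1.55). Col1a1 was at 424 CPM in both libraries. Of 8 small leucine-rich proteoglycans, Lum and Fmod were higher and none lower (median 0.38), but Fmod is also a tenocyte marker, and 3 cells held 62.8% and 69.8% of its UMIs.

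Basement membrane genes (10, median 0.13) had 1 higher gene, Hmcn1 (1.87), and elastic fibre and matricellular genes (14, median 0.08) had Sparcl1 (1.62) and Tnc higher and Mfap5 (0.64) lower. For Tnc, 3 cells held 75.0% of the UMIs in DMSO and 94.4% in MVC. Proteases and their inhibitors (13, median -0.17) had 4 lower, Adamts1 (0.55), Serpina3n, Mmp14 (0.65) and Adamts9, and none higher. Over all genes, 6.35% were lower and 8.8% higher. For Adamts9, 3 cells held 79.3% of the UMIs in DMSO, and its ratio turned after thinning.

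**Figure D5:**
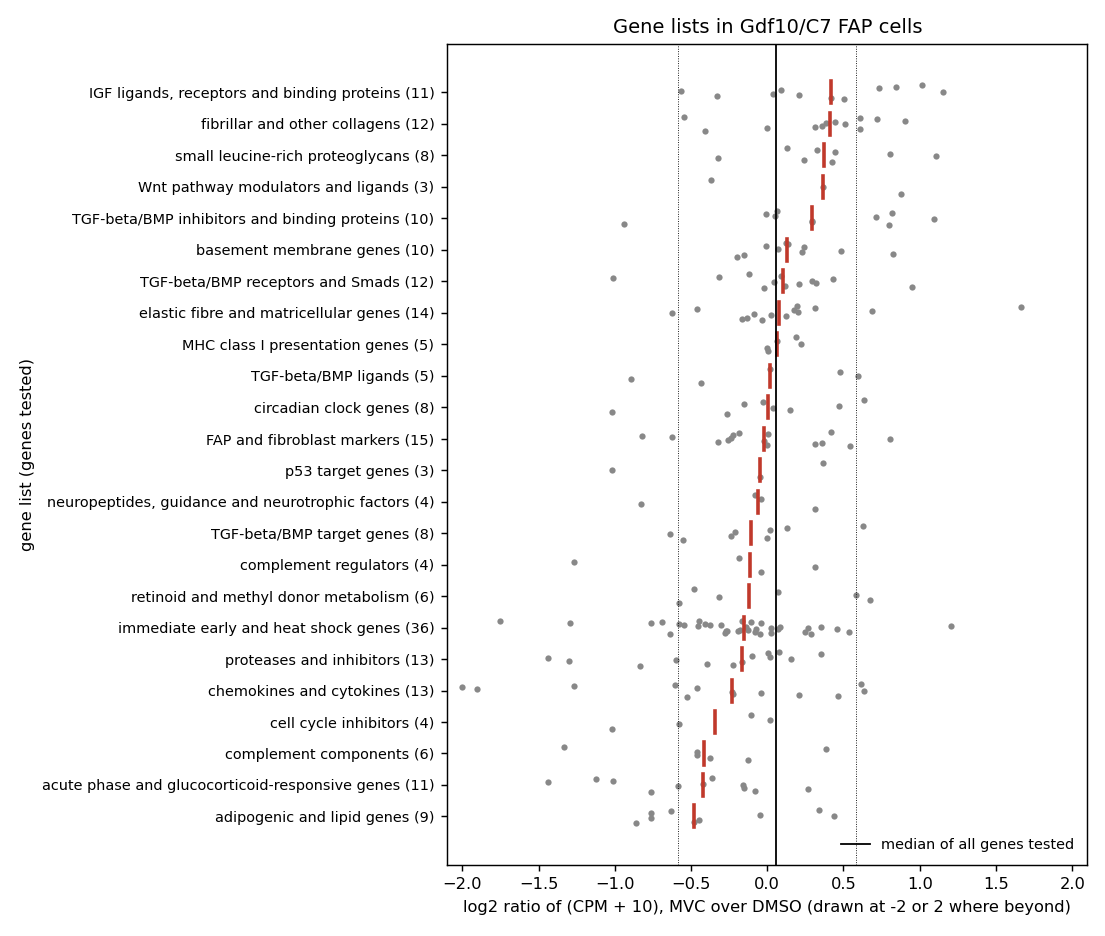
Log2 ratio of (CPM + 10), MVC over DMSO, of each gene (grey points; a value below -2 is drawn at -2) of the lists with at least 3 genes tested in the Gdf10/C7 cells, with the list median (red bar). The black line is the median of all genes tested (0.06) and dotted lines mark 1.5-fold; adipogenic, acute phase and complement component lists have the lowest medians (-0.48, -0.42 and -0.42) and IGF and collagen lists the highest (0.42 and 0.41).

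Chemokines and cytokines (13 measured besides Cxcl14, median -0.23) were split, with 4 lower and 2 higher, where 6.35% and 8.8% of all genes were. Il6 was at 750 CPM in DMSO and 489 in MVC (0.65), and Cxcl12, which retains stem and immune cells through Cxcr4, at 331 and 520 CPM (1.57). The B cell attractant Cxcl13 was at 475 and 120 CPM, but it was found in 12 DMSO and 6 MVC cells, and 3 of them held 80.4% and 91.0% of its UMIs. Il33 was at 176 and 67.3 CPM, with 68.9% of its DMSO UMIs in 3 cells. A single cell held 185 of the 386 Cxcl12 UMIs in MVC.

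The remaining lists had few genes past 1.5-fold, where 8.8% of all genes were higher and 6.35% lower. Circadian clock genes (8, median 0.00) had Bhlhe40 lower (0.47) and Nr1d2 higher (1.61). Among p53 targets (3 measured) and cell cycle inhibitors (4 measured), Cdkn1a and Cdkn1b (0.64) were lower. Retinoid and methyl donor genes (6, median -0.12) had Cyp26b1 (1.67) and Nnmt (1.58, turned after thinning) higher and Aldh1a1 (0.64) lower. In the list of neuropeptide, guidance and neurotrophic genes (4), Ntn4 was lower (0.54), and of 3 Wnt genes Dkk2, an inhibitor, was higher (1.94). No gene passed 1.5-fold among 5 MHC class I genes or in the 1 interferon-stimulated gene measured (Ifitm3). Of 15 FAP and fibroblast markers, Lum was higher, and Mfap5 and Osr1 (0.52) were lower.

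Of the genes named by rank against the other FAPs, not all of which passed 2-fold, some also differed between the libraries. Gas1 (1.73, 1.54 to 1.94), Setbp1 (1.68), Kcnt2 (1.71), Scara3 (1.66) and Sparcl1 (1.62) were higher in MVC, and Txnip was lower. The other gated FAPs went the same way. There, Setbp1 was at 266 CPM in DMSO and 342 in MVC, Kcnt2 at 78.7 and 149, Scara3 at 44.7 and 57.1, and Sparcl1 at 309 and 402. Fbln1 (0.91, 0.75 to 1.09), Nbl1 (0.996), Prrx1 (1.06) and Fmo1 (0.98) had intervals that held 1. Nckap5, which stood below the other FAPs, was also lower in MVC than in DMSO (0.56).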

How the data were processed

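The authors deposited raw UMI counts per gene and cell barcode from 2 droplet libraries (10x Genomics), written by Cell Ranger 7.0.0 per the file headers, with mm10 as the build in the submitters' processing notes, which also name Seurat 5.0.1. No normalisation had been applied to the deposited counts, and libraries were not pooled. The handling of intronic reads and of free RNA was not given in the sources used here, and the counts were used as they stood. The DMSO library held 5812 barcodes and 39150511 UMIs and the MVC library 6047 barcodes and 36063575 UMIs.

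Following the study's methods, barcodes under 500 genes or over 10% mitochondrial UMIs were removed, leaving 5437 and 5454. The cells, gene lists and comparisons were chosen with earlier results of these data known. Each class was summed within its library and scaled to 1000000 UMIs (CPM). Genes with at least 100 UMIs over both libraries were compared. A gene was called by size alone, past 1.5-fold between libraries or past 2-fold against other gated FAPs in both libraries, since 1 library per group allows no test and cells are not replicates. List medians used log2 ratios of (CPM + 10). Intervals (95%) are exact Poisson, conditional, Clopper-Pearson or Newcombe, and cover counting error only. Ratios and intervals were tested on simulated counts.

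Named genes were the 12 highest and 12 lowest by ratio between libraries, and the 15 highest and 10 lowest by the less extreme ratio against other FAPs, leaving out rule genes, unnamed models and genes of which 3 cells held 20% or more of the UMIs in a library with at least 20. Of each list, up to 4 genes past 1.5-fold were named by summed UMIs. Some genes that these rules name are not reported here. No doublet caller was run. Cells with at least 3 markers of 1 other cell type were left out in an alternative. Thinning drew 2000 UMIs per cell. RefSeq windows on GRCm38.p6 matched 4 of the 5 class genes. Computations used Python 3.11.15, numpy 2.4.6, scipy 1.17.1 and pandas 2.3.3.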

Additional observations from a re-analysis of the deposited data

How the results depend on the processing

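No paired analysis was possible because each treatment had 1 library. For the same reason no replicate could be left out. The share of gated FAPs in the class stayed lower in MVC in each of the 10 alternatives, of which the 5 that left a gene out of the list were chosen after seeing the data, and over all kept cells the difference was -0.63 points. Genes higher in MVC numbered 269, and 590 with at least 50 UMIs, 97 with at least 200, 50 after thinning and 54 past 2-fold. Genes lower in MVC numbered 194, and 387, 95, 75 and 52 under the same settings and 129 in cells with a Gdf10 UMI, a setting chosen after seeing the data. After scaling by the median ratio, 217 were higher and 247 lower, so that 46.8% of calls in place of 58.1% were higher. Against the other FAPs, 57 genes were higher, and 31 with at least 200 UMIs, 7 after thinning and 141 past 1.5-fold. The 34 lower genes became 22 with the stricter gate, 52 with at least 50 UMIs, 19 with at least 200, 9 after thinning and 108 past 1.5-fold. Fewer genes reached the minimum after thinning (692 of 3057), and 78 of 127 DMSO and 51 of 86 MVC cells that the rule then found were Gdf10/C7 cells before it, so membership itself depends on depth.

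Several gene ratios turned. After thinning, the log2 ratio was 1.52 for Adamts9, -0.82 for Col15a1, 0.23 for Csmd1, 0.56 for Il33, 0.00233 for Itgbl1, -0.61 for Ltbp1, -0.12 for Ly6e, -0.83 for Nnmt, -1.02 for Pappa2 and 0.0599 for Ypel3. Without cells holding markers of other types it was 0.20 for Adamts9 and -3.46 for Tnc, with the stricter gate -0.74 for Tnc, and in cells with a Gdf10 UMI 0.66 for Adamts9 and 2.45 for Cxcl13. Other calls were lost with no change of direction or with a ratio near 1. After thinning the ratio was 1.10 for Hsph1, 1.07 for Bcap31 and Bmp5, 1.16 for Cyp26b1, 1.002 for Tgfbi, 0.87 for Sgk1, 0.82 for Bhlhe40 and 0.92 for Il6, and in cells with a Gdf10 UMI 0.92 for Ntn4. Col14a1 passed 1.5-fold in 2 of 7 alternatives (1.19 to 1.55), and Bmp5, Tgfbi, Klf9 (0.58 to 0.70) and Lpl (0.59 to 0.77) in 3 of 7. The cause was not tested. Cdkn1a (0.40 to 0.51), Serpina3n (0.24 to 0.34), Txnip (0.39 to 0.49) and Socs3 (0.25 to 0.42) stayed lower past 1.5-fold in all 7 alternatives, and Igfbp5 (1.93 to 3.15), Col6a1 (1.64 to 2.12), Lum (1.67 to 2.14), Lgals1 (1.63 to 1.93) and Gas1 (1.65 to 1.92) stayed higher. The medians of the adipogenic list (-0.70 to -0.39), the acute phase list (-0.77 to -0.41) and the collagens (0.30 to 0.57) kept their sign in 10 of 10 alternatives.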
